A study of Mus musculus with 18 samples.

Results

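The response of basophils labelled TTP-KO to 2 h of antigen was taken from 6 of the study's 18 libraries. Of these, 3 came from cells given TNP-OVA (ovalbumin coupled to the hapten TNP) for 2 h and 3 from cells given plain ovalbumin (OVA) for 2 h as the control, both at 10 ng/mL. All genes that passed an expression filter were followed, which were 14076 of the 56413 in the deposited table. The cells had been grown from bone marrow of TTP-KO mice in interleukin-3 (0.3 ng/mL) over 7 days. All groups, controls included, had been coated from day 6 with IgE against TNP (1 µg/mL), and CD49b+ cells were then collected on magnetic beads, 50000 per sample. Wild-type (WT) cells handled in the same way, with 3 libraries after TNP-OVA for 2 h and 3 after OVA for 2 h, served to test where the response of the TTP-KO cells differed. The study's other libraries came from cells of both genotypes given TNP-OVA for 4 h. They entered the shared fit, and the TTP-KO ones are set beside the 2 h levels at the end. The study asked how loss of tristetraprolin (TTP) alters gene expression in basophils stimulated through IgE. The labels do not give the altered allele, and CD49b is also carried by natural killer cells and platelets, so the enriched cells need not be basophils alone.

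Basophils carry the high-affinity IgE receptor. When antigen links IgE molecules bound to it, the kinases Lyn and Syk start a cascade through adaptor proteins, calcium and the MAP kinases that releases stored histamine and switches on cytokine genes such as Il4 and Il13. Many of these messenger RNAs hold AU-rich elements. TTP, encoded by Zfp36, binds such elements and recruits the machinery that removes the poly(A) tail, so that it limits the same transcripts that activation induces, its own included.

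Levels are counts per 1e6, written CPM, scaled by edgeR's trimmed mean method (TMM), and fold changes are log2 values, TNP-OVA over OVA, with standard errors. A gene was called when its adjusted p lay below 0.05 in edgeR's quasi-likelihood test. Library totals ran from 7182837 to 8328833 estimated counts with TNP-OVA and from 6051772 to 8935769 with OVA in libraries labelled TTP-KO. Libraries of the same group differed by more than counting noise, so none was a copy. Mitochondrially encoded genes took 1.76% to 2.00% of counts with TNP-OVA and 1.97% to 2.12% with OVA. Nothing in the labels ties the 3 libraries of a group to separate mice or cultures. The p-values therefore rest on the spread among these libraries alone, which may be technical. The label basophil was checked on its proteases, of which Mcpt8 averaged 6928 CPM with TNP-OVA and 5152 CPM with OVA, and Prss34 12662 CPM with TNP-OVA and 12984 CPM with OVA. In bulk RNA, fewer cells of a type and less RNA per cell cannot be told apart.

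Zfp36 itself was examined first. It stood at 568, 553 and 572 CPM with TNP-OVA, against 219, 228 and 225 CPM with OVA in libraries labelled TTP-KO. Every antigen library lay above every control library, and the log2 fold change was 1.33 ± 0.05 (edgeR adjusted p = 5.12e-18). The transcript was therefore present in the libraries labelled TTP-KO, and its level does not check the genotype label, since the altered part of the gene is not named. Every direction below that names TTP-KO rests on that label.

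Antigen raised and lowered similar numbers of genes, with more of the large shifts upward. Of 14076 genes tested, 4852 were called (34.5%), 2510 higher (17.8%) and 2342 lower (16.6%) with TNP-OVA than with OVA. At 2-fold or more, 704 called genes were higher and 304 lower. At 4-fold or more, 167 were higher and 22 lower. Among called genes whose groups did not overlap and whose mean log2 CPM reached 2, the 12 largest increases were Il13, Ccl3, Ptgs2, Il6, Il4, Egr3, Nr4a3, Areg, Plk3, Fosl1, Ccl4 and Aqp3, with log2 fold changes between 3.12 and 3.68. These are cytokine and chemokine genes, immediate early transcription factors, an epidermal growth factor family ligand (Areg), the inducible cyclooxygenase (Ptgs2), a polo-like kinase (Plk3) and a water and glycerol channel (Aqp3). The 12 largest decreases lay between -2.47 and -1.72 and were Exosc6, Nxpe4, Pik3ip1, Cables1, Tbc1d4, Rnf144b, Ptgfr, Hrh4, Abhd15, Il17ra, Kcne3 and Bmf.

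**Figure D1:**
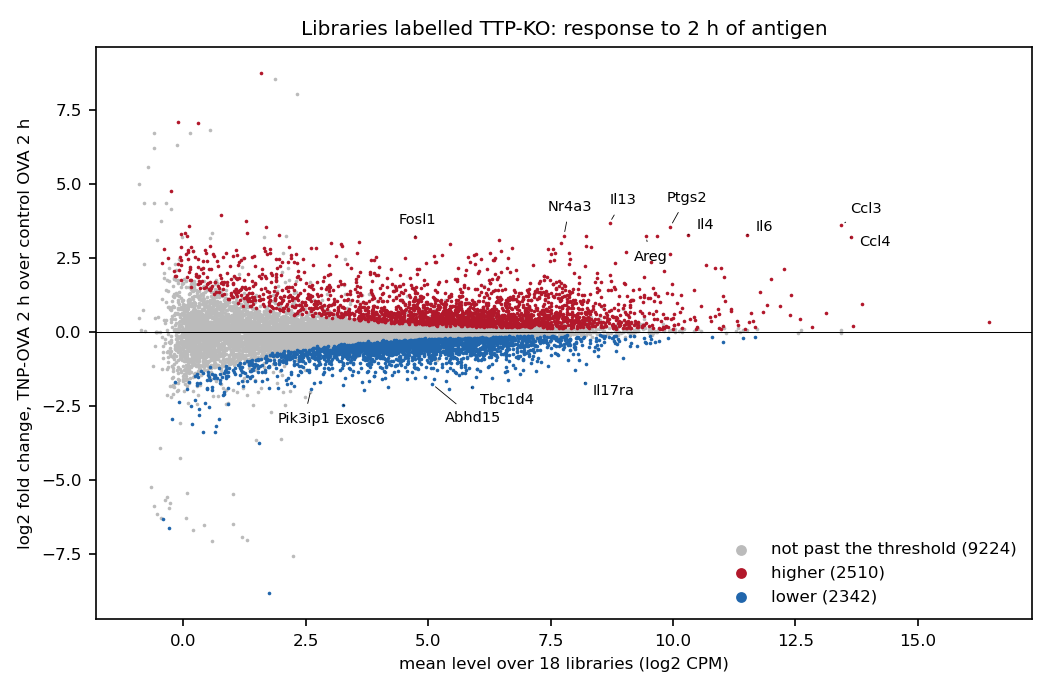
Each dot is 1 of the 14076 tested genes, with its mean level over the 18 libraries in log2 CPM across and its log2 fold change, TNP-OVA 2 h over OVA 2 h in libraries labelled TTP-KO, upward. Red dots are the 2510 genes called higher and blue dots the 2342 called lower, and the abundant chemokine genes Ccl3 and Ccl4 stand at the upper right.

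The split of calls into higher and lower depended on the scaling. Some chemokine transcripts took a larger share of the antigen libraries than of the controls, and their part in this dependence was not tested. Ccl3 and Ccl4 together held 4.73%, 4.91% and 4.90% of all counts with TNP-OVA, against 0.562%, 0.610% and 0.582% with OVA. TMM factors ran from 0.886 to 0.897 with TNP-OVA and from 1.12 to 1.13 with OVA, without overlap, and put the median log2 fold change of all tested genes at -0.0295. Scaled by library totals alone, that median was -0.365, and 7676 genes were called, 1218 higher and 6458 lower, so that 15.9% of calls were higher in place of 51.7%. All changes below are on the TMM scale, and list counts under library totals are given beside them. Rn18s-rs5, a ribosomal RNA gene, had a called log2 fold change of 0.34 ± 0.08 (edgeR adjusted p = 0.00299), while its unscaled share of counts was 7.91% to 8.50% with TNP-OVA and 7.96% to 8.27% with OVA.

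Components of the IgE receptor and its first signalling steps moved in both directions. Of 43 tested genes of this list, 15 were higher and 15 lower, with a median log2 fold change of -0.07, and under library totals 7 were higher and 28 lower. This count and each list count below stand beside 17.8% higher and 16.6% lower over all tested genes. Ms4a2, the beta chain of the receptor, had 208, 202 and 212 CPM with TNP-OVA, against 437, 433 and 455 CPM with OVA. Every antigen library was below every control library, with a log2 fold change of -1.09 ± 0.06 (edgeR adjusted p = 1.17e-15). The IgE-binding alpha chain gene Fcer1a fell by 0.36 on the log2 scale, while the shared gamma chain gene Fcer1g rose by 0.53. Among the signalling genes, the adaptor SLP-76 (Lcp2) stood at 359.8, 378 and 366 CPM with TNP-OVA, against 146, 151 and 155 CPM with OVA. Rasgrp1, an exchange factor that activates Ras, rose by 1.27 ± 0.18. The catalytic subunit genes of the leukocyte PI3-kinases, Pik3cd and Pik3cg, had log2 fold changes of -0.93 and -0.74, both called, and Plcg1, a phospholipase C, fell by 0.68 on the log2 scale.

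Downstream, genes of the calcium pathway also moved both ways. Of 28 tested genes of the calcium and NFAT list, 8 were higher and 10 lower (5 and 17 under library totals). Orai1, the pore of the store-operated calcium channel, stood at 308, 308 and 324 CPM with TNP-OVA, against 122, 115 and 112 CPM with OVA, without overlap, and rose by 1.43 ± 0.05. Stim1, which senses the emptying of the store and opens that channel, fell by 0.53 on the log2 scale. Of the NFAT transcription factor genes, Nfatc1 rose by 1.10 ± 0.06, whereas Nfatc2 and Nfatc3 fell by 0.49 and 0.50. Atp2b1, a pump that removes calcium from the cell, rose by 1.16 ± 0.06.

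Genes that feed back on MAP kinase and cytokine signals mostly rose. Of 33 tested, 26 were higher and 1 lower, with a median log2 fold change of 1.34 beside -0.0295 over all tested genes (22 and 1 under library totals). Dusp5, a phosphatase of nuclear ERK, stood at 434, 406 and 391 CPM with TNP-OVA, against 66, 81.9 and 76 CPM with OVA. Spry2, an inhibitor of Ras and MAP kinase signalling, stood at 138, 141 and 116 CPM with TNP-OVA, against 22.1, 23.8 and 26.2 CPM with OVA. In each gene the antigen libraries lay well above the controls, and the log2 fold changes were 2.45 ± 0.07 and 2.45 ± 0.09. The kinase gene Pim3 rose by 2.50 ± 0.07, and Socs1, a suppressor of cytokine receptor signals, by 2.28. Dusp7 was the only called member that was lower, at -0.50, and its call ended under DESeq2 and without OVA replicate 1 or 2 or TNP-OVA replicate 1 or 3.

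**Figure D2:**
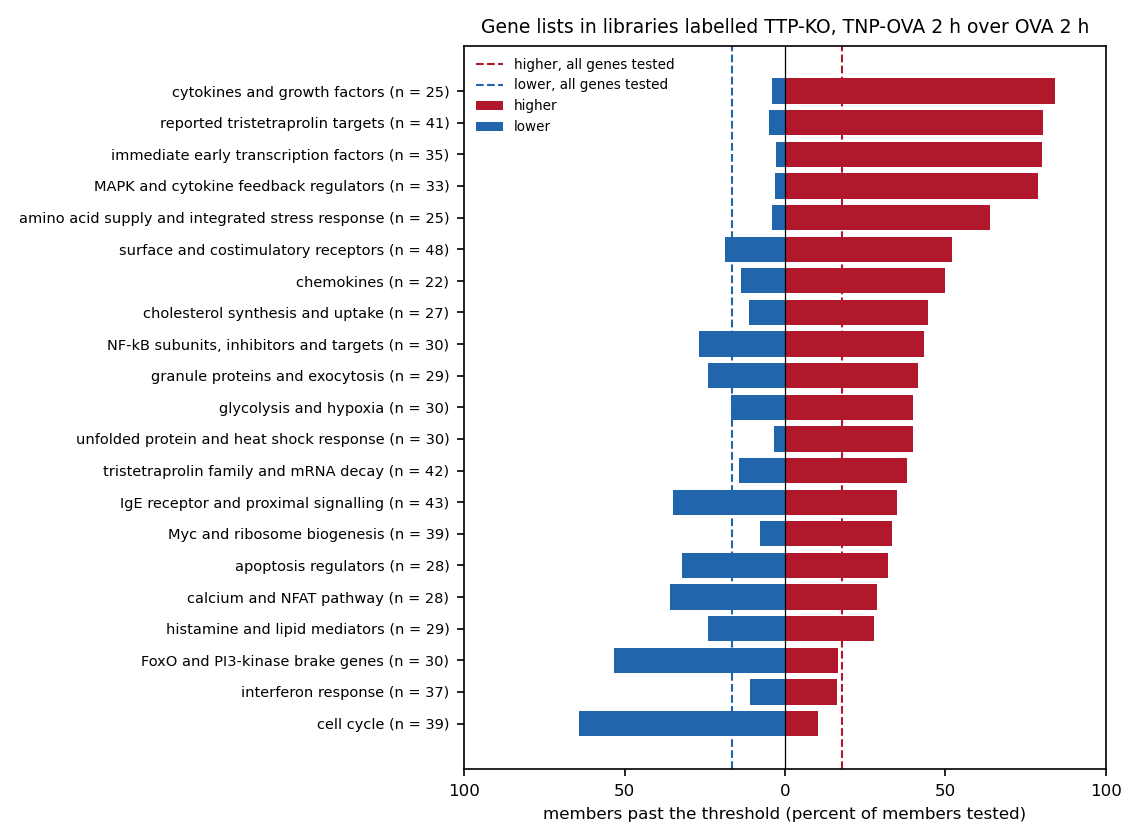
Bars show the percentage of tested members of each of 21 gene lists that were called higher (red, to the right) or lower (blue, to the left) with TNP-OVA 2 h than with OVA 2 h in libraries labelled TTP-KO. Dashed lines give 17.8% and 16.6%, the shares over all tested genes. Cytokines, reported TTP targets, immediate early factors and feedback regulators reach furthest to the right, and cell cycle and FoxO lists furthest to the left.

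Genes listed as immediate early transcription factors were higher in 28 of 35 tested members and lower in 1 (28 and 3 under library totals). Their median log2 fold change was 1.13. Induction without new protein, which defines that class, was not tested for any member. Egr3 stood at 637, 637 and 615 CPM with TNP-OVA, against 66.6, 72 and 60.2 CPM with OVA. Nr4a3, an orphan nuclear receptor of the Nr4a family, stood at 419.5, 429 and 402 CPM with TNP-OVA, against 45.6, 45.7 and 40.6 CPM with OVA. Fosl1, which encodes the AP-1 subunit Fra-1, stood at 52.3, 44.5 and 48.4 CPM with TNP-OVA, against 6.72, 3.92 and 5.31 CPM with OVA. All antigen libraries were above all control libraries in these 3 genes. The log2 fold changes were 3.25 ± 0.08 for Egr3, 3.25 ± 0.06 for Nr4a3 and 3.21 ± 0.16 for Fosl1. Egr1 rose by 2.88 ± 0.09, Nr4a1 by 2.80, Junb by 1.42 and Jun by 1.12. Fos was not called at 2 h, with a log2 fold change of -0.29 (edgeR adjusted p = 0.214). Under library totals Fos was called lower, at -0.63 (edgeR adjusted p = 0.00598). Klf2, a factor of resting lymphocytes, was lower at -0.51, a call that ended under DESeq2 and without OVA replicate 2 or TNP-OVA replicate 1 or 2.

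Most tested cytokine genes rose, and Il13 had the largest log2 fold change of the named genes. Of 36 listed, 25 were tested, 21 of which were higher and 1 lower, with a median log2 fold change of 1.46 (19 and 1 under library totals). Il13, a cytokine of type 2 immunity, stood at 1230, 1201 and 1184 CPM with TNP-OVA, against 93.7, 101 and 88.2 CPM with OVA. The values within each group lay close together, and the difference of 3.68 ± 0.06 on the log2 scale was 12.8-fold (edgeR adjusted p = 1.35e-26). Il4, the cytokine that starts type 2 helper cell and IgE responses, stood at 2664, 2605 and 2393 CPM with TNP-OVA, against 255, 282 and 255 CPM with OVA. Il6, an inducer of acute phase and fever responses, stood at 6886, 6851 and 6621 CPM with TNP-OVA, against 673, 738 and 684 CPM with OVA. Neither gene showed overlap, and the log2 fold changes were 3.27 ± 0.08 for Il4 and 3.28 ± 0.07 for Il6. Areg, whose product drives epithelial growth and repair, rose by 3.24 ± 0.07. Of the other cytokine genes, Inhba (activin A) rose by 3.01 on the log2 scale, Csf2 (GM-CSF) by 2.82, Osm by 2.71, Lif by 2.56 and Tnf by 1.24. Pdgfb, a growth factor for mesenchymal cells, fell by 1.02. The 11 untested members, among them Il5, Il9, Il2, Il31 and Ifng, did not pass the expression filter. That filter spanned all 6 groups, so a member low in the controls could be tested through antigen libraries alone. A member that stayed low was left out, which favours a high share of increases among those tested. The same limit holds for the other lists.

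Chemokine genes gave the largest gains in CPM. Of 22 tested, 11 were higher and 3 lower (9 and 6 under library totals), and the count of 3 was 1 without OVA replicate 3. Ccl3 and Ccl4, which attract monocytes and lymphocytes, were the most abundant of them. Ccl3 stood at 27430, 27290 and 27340 CPM with TNP-OVA, against 2095, 2370 and 2276 CPM with OVA. Ccl4 stood at 25870, 28230 and 27420 CPM with TNP-OVA, against 2869, 3088 and 2934 CPM with OVA. Both groups of both genes were well apart, at log2 fold changes of 3.61 ± 0.05 for Ccl3 and 3.20 ± 0.04 for Ccl4. Cxcl2, a neutrophil attractant, rose by 2.64 ± 0.10 and Ccl7 by 2.32 ± 0.14. Cxcl10, a chemokine induced by interferon, fell to 37.8, 45.2 and 42.8 CPM with TNP-OVA, against 63.8, 59.9 and 63.2 CPM with OVA. Spp1 (osteopontin), a secreted phosphoprotein that the lists do not hold, was the sixth largest gain in CPM, at 6060, 5995 and 6073 CPM with TNP-OVA, against 1351, 1424 and 1359 CPM with OVA.

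**Figure D3:**
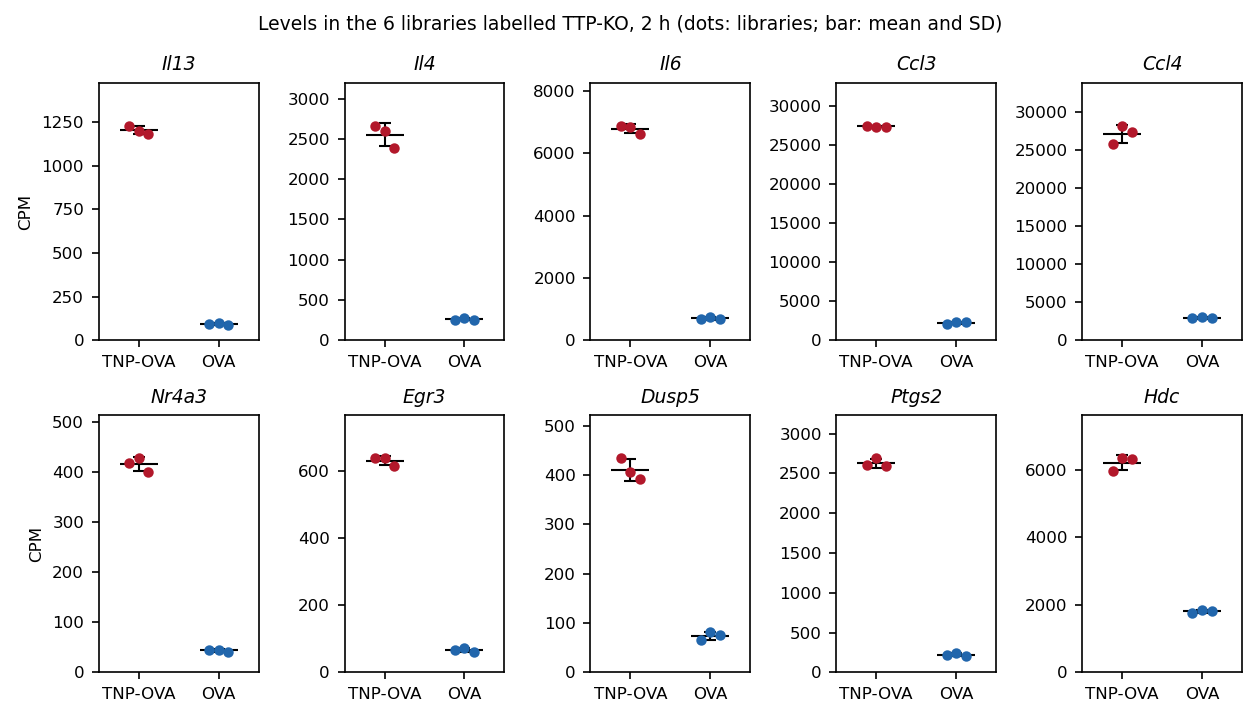
Dots are the 3 libraries labelled TTP-KO given TNP-OVA for 2 h (red, left) and the 3 given OVA for 2 h (blue, right), and bars give the mean and SD, in CPM on a linear axis from 0. In none of the 10 genes do the groups overlap, and Ccl3 at 27290 to 27430 CPM is the most abundant after antigen beside Ccl4 at 25870 to 28230 CPM.

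The promoters of these genes are shown because members that move together can be set beside the letters of known factor sites. Sequences are RefSeq windows from 250 bases before to 50 after the start of transcription in build GRCm38.p6, matched by symbol for 9 of the 12 largest increases and 9 of the 12 largest decreases. The genes below were chosen from the cytokine, chemokine and transcription factor genes among the largest increases. They lie at chr11:53634653-53634952 on the minus strand (Il13), chr11:83649329-83649628 on the minus strand (Ccl3), chr4:48045055-48045354 on the plus strand (Nr4a3) and chr5:30012864-30013163 on the plus strand (Il6). Each window includes the start of the first exon, and capitals mark the matches.
Il13: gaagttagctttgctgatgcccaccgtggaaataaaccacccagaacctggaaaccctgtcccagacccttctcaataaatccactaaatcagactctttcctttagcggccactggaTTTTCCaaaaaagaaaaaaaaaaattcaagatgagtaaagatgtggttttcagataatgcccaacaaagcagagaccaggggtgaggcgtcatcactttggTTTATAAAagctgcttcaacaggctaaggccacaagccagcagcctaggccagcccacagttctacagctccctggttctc
Ccl3: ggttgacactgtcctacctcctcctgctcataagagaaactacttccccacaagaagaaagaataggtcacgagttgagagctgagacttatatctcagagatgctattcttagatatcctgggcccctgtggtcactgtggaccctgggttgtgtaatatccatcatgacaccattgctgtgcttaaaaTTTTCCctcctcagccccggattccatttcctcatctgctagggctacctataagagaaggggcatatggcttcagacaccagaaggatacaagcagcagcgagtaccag
Nr4a3: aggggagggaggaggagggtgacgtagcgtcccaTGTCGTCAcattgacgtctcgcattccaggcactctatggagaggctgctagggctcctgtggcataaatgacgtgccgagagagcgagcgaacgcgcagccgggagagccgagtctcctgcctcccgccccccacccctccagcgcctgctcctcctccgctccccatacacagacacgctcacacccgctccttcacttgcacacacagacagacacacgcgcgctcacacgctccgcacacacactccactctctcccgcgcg
Il6: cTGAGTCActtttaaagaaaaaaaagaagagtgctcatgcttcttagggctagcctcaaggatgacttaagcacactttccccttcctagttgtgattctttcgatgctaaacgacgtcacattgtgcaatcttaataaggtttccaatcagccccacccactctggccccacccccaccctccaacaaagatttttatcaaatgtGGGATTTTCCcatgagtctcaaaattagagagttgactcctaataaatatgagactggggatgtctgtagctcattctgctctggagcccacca
Letters were searched on both strands. None were found in Il4 or Plk3, which were also matched among the largest increases but are not shown. The NFAT core GGAAAA was found in Il13, 132 bases before the start, in Ccl3, 60 bases before it, and in Ptgs2 and Il6, or 4 of 9 increases. It was in 2 of 9 decreases and in 23.6% of all 27025 promoters in the table. The cAMP response letters TGACGNCA were in Nr4a3 and Areg, 2 of 9 increases and 0 of 9 decreases, and in 3.37% of all promoters. The AP-1 letters TGANTCA were in Il6 and in Kcne3, 1 of 9 in each set, beside 7.93% of all. The NF-kB letters, GGG, any pair of bases and TTTCC, were found in Il6, where they overlap the NFAT core, and in 1.62% of all promoters. The Egr letters GCGNGGGCG were in 1 of 9 in each set (5.55% of all), TATAAA in 3 increases, Il13, Areg and Aqp3, and 1 decrease (14.2%), and AAAGGTCA, the Nr4a site, in none of the 18 (1.46%). A match is a run of letters, not a site shown to be used.

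Genes of histamine and lipid mediator synthesis divided. Of 29 tested, 8 were higher and 7 lower (5 and 13 under library totals), and the count of 8 was 5 without OVA replicate 2, without OVA replicate 3 or with no filter on low counts. Ptgs2, the inducible cyclooxygenase that starts prostaglandin synthesis, stood at 2601, 2692 and 2589 CPM with TNP-OVA, against 219, 239.7 and 212 CPM with OVA. Hdc, the enzyme that makes histamine, stood at 5944, 6338 and 6311 CPM with TNP-OVA, against 1760, 1836 and 1809 CPM with OVA. The antigen libraries were far above the controls in both, with log2 fold changes of 3.55 ± 0.09 for Ptgs2 and 1.78 ± 0.04 for Hdc. Slc18a2, which loads histamine into granules, rose by 0.76. Receptors for prostaglandins moved apart. Ptger2, an E2 receptor that raises cAMP, rose by 1.54 ± 0.12, whereas Ptger3 fell by 1.15 and Ptgfr, the F2 alpha receptor, by 1.84 on the log2 scale. Ptgfr stood at 1.43, 2.58 and 1.71 CPM with TNP-OVA, against 6.28, 9.08 and 5.31 CPM with OVA, so that few reads lie behind it. Alox15, a lipoxygenase, fell by 0.75 and Ptges, a prostaglandin E synthase, by 0.85. Hrh4, the histamine H4 receptor of granulocytes, stood at 4.28, 6.65 and 4.04 CPM with TNP-OVA, against 19.4, 16.4 and 16.9 CPM with OVA, with a log2 fold change of -1.80 ± 0.19.

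Granule genes were mixed as well. Of 29 tested, 12 were higher and 7 lower, and under library totals the balance turned, with 3 higher and 16 lower. Gzmb (granzyme B) stood at 582, 586 and 545 CPM with TNP-OVA, against 178, 194 and 175 CPM with OVA. Srgn, the proteoglycan that packs granule contents, rose by 1.26 ± 0.03 and Serpinb1a, an inhibitor of granule proteases, by 1.27 ± 0.04. Mcpt8, the basophil protease, rose by 0.43, and Prss34, another abundant basophil protease, was not called at -0.04. Under library totals Mcpt8 was not called, at 0.09, and Prss34 was called lower, at -0.37. Rab27a, a small GTPase that docks granules at the membrane, stood at 44.5, 40.0 and 46.2 CPM with TNP-OVA, against 106, 102 and 108 CPM with OVA, all antigen values below all controls, at -1.28 ± 0.07 (edgeR adjusted p = 2.99e-14). Rab27b, its relative, rose by 0.49, but was not called under library totals, at 0.15.

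Receptors and costimulatory molecules were more often higher than lower. Of 48 tested genes of this list, 25 were higher and 9 lower (16 and 18 under library totals, where the balance turned). Mst1r, a receptor tyrosine kinase, stood at 17.7, 18.2 and 23.3 CPM with TNP-OVA, against 3.36, 1.46 and 3.1 CPM with OVA. Tnfrsf12a, the receptor of the cytokine TWEAK, stood at 109, 114 and 114 CPM with TNP-OVA, against 18, 21.4 and 19.4 CPM with OVA. Pdcd1lg2, a ligand of the inhibitory receptor PD-1, rose by 1.66 ± 0.06 and Cd274, another, by 1.19. The early activation marker Cd69 rose by 1.28 ± 0.08. Ccr3, the eotaxin receptor of basophils and eosinophils, fell by 0.88, Il18r1 by 1.15, and Itga2, which encodes the CD49b used for enrichment, by 0.63.

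The Zfp36 family and the machinery of mRNA decay were followed next. Of 42 tested, 16 were higher and 6 lower, with 7 and 20 under library totals. Zfp36l1, a relative that binds the same kind of element, stood at 217, 214 and 210.2 CPM with TNP-OVA, against 69.7, 66 and 70.3 CPM with OVA, without overlap, and rose by 1.64 ± 0.05 (edgeR adjusted p = 6.51e-20). Zfp36l2 rose by 0.36, but under library totals it was not called, at 0.02 (edgeR adjusted p = 0.704). Btg1, which recruits the deadenylase complex, rose by 1.07 ± 0.04, and Nanos1, an RNA-binding repressor, by 1.40 ± 0.15. Exosc6, a subunit of the RNA exosome, was the largest of the named decreases. It stood at 2.99, 1.49 and 2.49 CPM with TNP-OVA, against 8.47, 16.9 and 12.9 CPM with OVA, at -2.47 ± 0.39 (edgeR adjusted p = 8.80e-05), and the control libraries of this low transcript were spread widely.

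Transcripts reported in the literature as TTP targets were mostly higher after antigen. Of 44 listed, 41 were tested, of which 33 were higher and 2 lower (30 and 4 under library totals), with a median log2 fold change of 1.32. Many members are also in the lists above, and the list holds Il13, Ccl3, Ptgs2, Il6 and Areg. In the same list the difference from the WT response was called in 3 of 41 members, Il13, Ccl3 and Zfp36, all larger in libraries labelled TTP-KO, where over all tested genes 0.0355% were called as higher and 0.0142% as lower. The Zfp36 call was lost in 10 of 12 fits without 1 library, and the list was chosen with earlier results of these data known. The members that fell were Cxcl10, described above, and Icam1, an adhesion molecule, which fell by 0.31 on the log2 scale.

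NF-kB subunits, inhibitors and targets were mixed. Of 30 tested, 13 were higher and 8 lower (9 and 16 under library totals, where the balance turned), with a median log2 fold change of 0.09. Nfkbid, an atypical inhibitor that acts in the nucleus, stood at 202, 183 and 173 CPM with TNP-OVA, against 47.3, 59.3 and 54.9 CPM with OVA, and rose by 1.78 ± 0.07. Nfkbiz, another nuclear member, rose by 0.99 ± 0.07 and Tnfaip3 (A20), a brake on the pathway, by 0.63. Of the lower members, Tnip1 fell by 0.35 and Nfkbie by 0.24 on the log2 scale.

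Genes that restrain growth and PI3-kinase signalling were more often lower than higher. Of 30 tested members of the FoxO and PI3-kinase brake list, 16 were lower and 5 higher, with a median log2 fold change of -0.34 (22 and 2 under library totals). Pik3ip1, an inhibitor of PI3-kinase, stood at 3.13, 2.44 and 2.96 CPM with TNP-OVA, against 11.4, 11.7 and 10.0 CPM with OVA. Tbc1d4, a regulator of vesicle traffic downstream of Akt, stood at 31.8, 28.2 and 28.3 CPM with TNP-OVA, against 118, 100.5 and 108 CPM with OVA. S1pr1, a receptor that guides cells out of tissue, stood at 24.9, 23.6 and 25.2 CPM with TNP-OVA, against 66.2, 65.9 and 72.5 CPM with OVA. The antigen libraries were below the controls in all 3 genes. The log2 fold changes were -1.95 ± 0.21, -1.88 ± 0.10 and -1.47 ± 0.10 in that order. Cdkn1b (p27), an inhibitor of cell cycle entry, stood at 105, 92.6 and 93.5 CPM with TNP-OVA, against 192, 205 and 202 CPM with OVA, at -1.04 ± 0.07.

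Cell cycle genes were mostly lower. Of 39 tested, 25 were lower and 4 higher (34 and 3 under library totals), with a median log2 fold change of -0.36. In WT 15 were lower and 5 higher, and no member had a called difference between the responses. Mcm7, a replication helicase subunit, stood at 20.2, 20.6 and 16.6 CPM with TNP-OVA, against 31.1, 36 and 37.1 CPM with OVA, without overlap. The mitotic genes Bub1b, Bub1 and Aurkb had called log2 fold changes of -0.74, -0.68 and -0.63. Among the 4 that were higher were Ccnd2, a D-type cyclin, at 256, 242 and 224 CPM with TNP-OVA, against 73.5, 69.3 and 71.9 CPM with OVA, and Cdkn1a (p21), a cell cycle inhibitor, which rose by 1.48 ± 0.04. Pcna rose by 0.70.

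Apoptosis genes were split, with 9 higher and 9 lower of 28 tested (8 and 16 under library totals). Bmf, a pro-apoptotic BH3 gene, stood at 8.12, 6.65 and 6.38 CPM with TNP-OVA, against 21.3, 24.4 and 23.7 CPM with OVA, and Bcl2l11 (Bim), another, at 278, 298 and 292 CPM with TNP-OVA, against 93.5, 98.2 and 88.6 CPM with OVA. The antigen libraries were all lower than the controls for Bmf and all higher for Bcl2l11, at -1.72 ± 0.15 for Bmf and 1.63 ± 0.05 for Bcl2l11. Pmaip1 (Noxa) rose by 1.73 ± 0.07, Mcl1, a survival gene, by 0.54, and Bcl2 fell by 0.38.

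**Figure D4:**
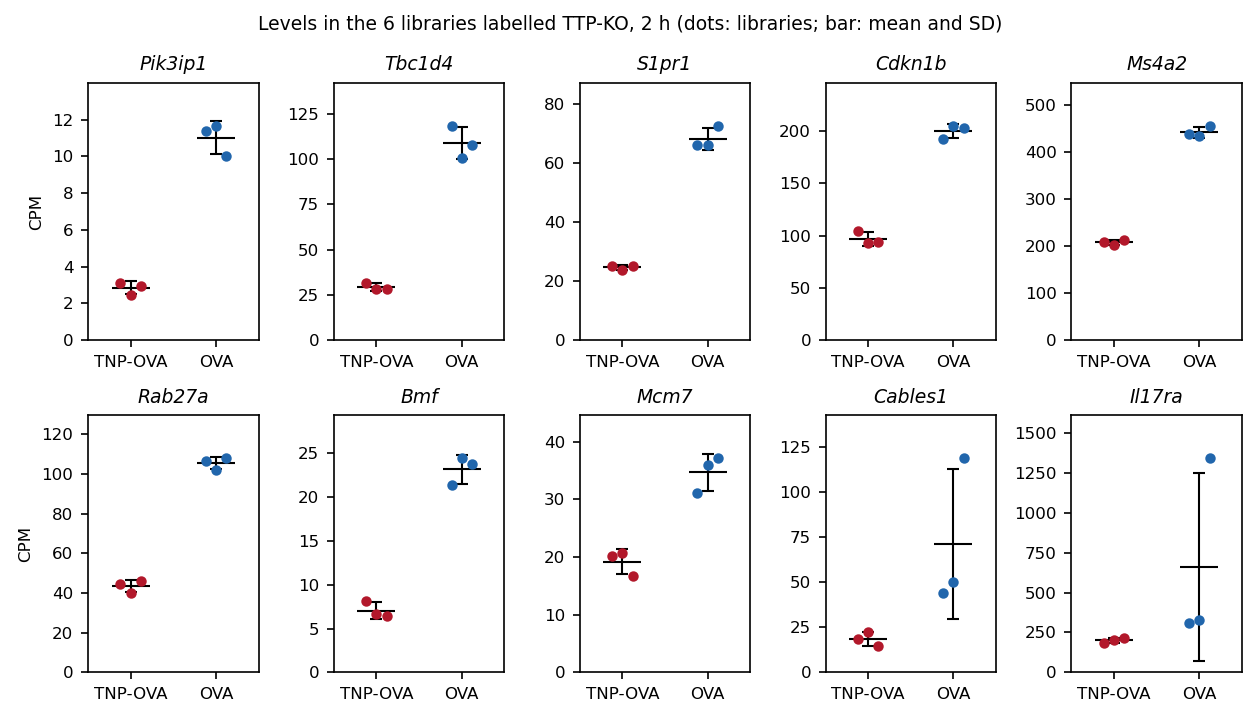
Dots are the 3 libraries labelled TTP-KO given TNP-OVA for 2 h (red, left) and the 3 given OVA for 2 h (blue, right), with bars for the mean and SD, in CPM on a linear axis from 0. The groups do not overlap in any of the 10 genes, and in Cables1 and Il17ra OVA replicate 3, at 119 and 1341 CPM, stands apart from the other controls.

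Of the other decreases, 2 leaned on 1 control library. Il17ra, a subunit of the interleukin-17 receptor, stood at 184, 201 and 214 CPM with TNP-OVA, against 308, 329 and 1341 CPM with OVA. OVA replicate 3 was far above the other controls. The log2 fold change was -1.73 ± 0.45 (edgeR adjusted p = 0.00874), it was -0.68 without that library, with an adjusted p of 0.00103, and the call ended in a fit of the 6 libraries alone (edgeR adjusted p = 0.165). Cables1, a regulator of cyclin-dependent kinases, stood at 18.5, 22.5 and 14.8 CPM with TNP-OVA, against 43.8, 50.2 and 119 CPM with OVA, and its call also ended in the fit of 6 libraries (edgeR adjusted p = 0.06). Abhd15, a hydrolase family gene, gave closer values, at 16.7, 18.1 and 16.3 CPM with TNP-OVA, against 55.5, 61.4 and 57.6 CPM with OVA, with a log2 fold change of -1.77 ± 0.12. Rnf144b, a ubiquitin ligase gene, stood at 9.83, 8.96 and 7.16 CPM with TNP-OVA, against 30.2, 35.2 and 29.4 CPM with OVA. Nxpe4 and Kcne3, a potassium channel subunit, had log2 fold changes of -1.96 ± 0.17 and -1.72 ± 0.21. Nedd4, another ubiquitin ligase, was among the largest losses in CPM, at 185, 180.4 and 176 CPM with TNP-OVA, against 442, 443 and 449 CPM with OVA.

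Genes of amino acid supply and growth were more often higher than lower. Of 25 tested amino acid and integrated stress response genes, 16 were higher and 1 lower (11 and 5 under library totals, and 2 lower without TNP-OVA replicate 1), with a median log2 fold change of 0.54. Slc7a5, the large neutral amino acid carrier, stood at 617, 661 and 667 CPM with TNP-OVA, against 221, 220.2 and 236 CPM with OVA. Slc7a1, an arginine carrier, and Slc1a5, a glutamine carrier, rose by 1.40 ± 0.07 and 1.10 ± 0.07, and Atf4, the transcription factor of the stress response, by 0.87. Myc and ribosome biogenesis genes were higher in 13 of 39 and lower in 3, but in 3 and 14 under library totals. Myc stood at 22.5, 27.8 and 24.3 CPM with TNP-OVA, against 13.7, 7.62 and 10.7 CPM with OVA. Its opponents Mxi1 and Mxd3 had called log2 fold changes of -1.06 and -0.80, whereas Mxd1, a further opponent, rose by 0.80 ± 0.05.

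The remaining lists moved less or turned with the scaling, and their counts stand beside 17.8% higher and 16.6% lower over all tested genes. Glycolysis and hypoxia genes were higher in 12 and lower in 5 of 30 (6 and 14 under library totals), with Ero1a, an oxidase of the endoplasmic reticulum, at 1949, 2017 and 1992 CPM with TNP-OVA, against 715, 753 and 769 CPM with OVA, and Hk2, a hexokinase, at 30.6, 27.3 and 30.6 CPM with TNP-OVA, against 53, 58.5 and 66.3 CPM with OVA. Cholesterol synthesis genes were higher in 12 and lower in 3 of 27 (6 and 10 under library totals), and the count of 3 was 1 without OVA replicate 2. Among these Cyp51, a sterol demethylase, rose by 1.07 ± 0.07. Unfolded protein and heat shock genes were higher in 12 and lower in 1 of 30, and in 2 and 16 under library totals, and no member was lower without TNP-OVA replicate 2. Hspa5, the chaperone BiP, rose by 0.57 ± 0.04. Interferon response genes were higher in 6 and lower in 4 of 37, and in 2 and 19 under library totals, so that with TMM their shares lay at or below those over all tested genes. Isg20, an exonuclease, rose by 1.08 ± 0.10.

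Markers of other cells were checked beside these results, and their part in the results was not tested. Over all tested genes 17.8% were higher and 16.6% lower. The summed level of 14 basophil markers was 34790 to 35370 CPM with TNP-OVA and 25180 to 26650 CPM with OVA, and 7 were higher and 4 lower (5 and 7 under library totals). The sum includes genes that antigen raised, such as Hdc (mean 6198 CPM with TNP-OVA, 1802 with OVA) and Il4 (2554 and 264). It is therefore not a level of cell identity alone. The 4 lower members were Ms4a2, Fcer1a, Itga2 and Ccr3. Summed mast cell markers were at 1452 to 1493 CPM with TNP-OVA and 1460 to 1472 CPM with OVA, with 3 of 7 tested members higher (0 higher and 4 lower under library totals). Monocyte and macrophage markers summed to 9836 to 10000 CPM with TNP-OVA and 9281 to 9483 CPM with OVA, with 4 of 14 higher and 1 lower, Cx3cr1 at -1.28 ± 0.24 (2 and 9 under library totals). Dendritic cell markers summed to 2720 to 2881 CPM with TNP-OVA and 2573 to 2665 CPM with OVA. Of 8 tested, 5 were higher, a count that was 1 or 2 without OVA replicate 1 or 2 or TNP-OVA replicate 2 or 3, and under library totals 1 was higher and 5 lower. With no filter on low counts, 1 was higher.

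Neutrophil and granulocyte precursor markers summed to 3417 to 3740 CPM with TNP-OVA and 3141 to 3538 CPM with OVA, with 2 of 17 higher and 2 lower (0 and 9 under library totals). Eosinophil markers summed to 179.7 to 237.1 CPM with TNP-OVA and 152.6 to 178.4 CPM with OVA, with 2 of 8 higher, led by Siglecf at 1.62 ± 0.10, and 1 lower. Natural killer and innate lymphoid markers summed to 182.3 to 200.1 CPM with TNP-OVA and 125.6 to 130.9 CPM with OVA. Of 4 tested members, 1 was higher, Il7r at 0.79 ± 0.05, and 1 lower, Rora at -0.54 ± 0.13. Il7r alone made up most of the sum, at a mean of 169 CPM with TNP-OVA and 97.84 CPM with OVA. T and B cell markers summed to 33.3 to 39.78 CPM with TNP-OVA and 24.38 to 32.72 CPM with OVA, with 1 of 7 higher. Trac, the constant region of the T cell receptor alpha chain, stood at 4.99, 6.38 and 4.51 CPM with TNP-OVA, against 0.876, 0.784 and 0.801 CPM with OVA, whereas Cd3e, Cd3d, Cd3g, Cd4 and Cd8a did not pass the expression filter. With control values so near the floor, Trac may have passed that filter through antigen libraries alone, which favours a call as higher. Erythroid markers summed to 33.14 to 44.17 CPM with TNP-OVA and 31.38 to 40.15 CPM with OVA, with 0 of 6 called. Megakaryocyte markers summed to 1512 to 1656 CPM with TNP-OVA and 1356 to 1774 CPM with OVA, with 1 of 9 lower, Itga2b at -0.14 ± 0.04 (4 under library totals). Progenitor markers summed to 74.13 to 77.02 CPM with TNP-OVA and 94.52 to 99 CPM with OVA, with 1 of 8 lower, Myb at -0.79 ± 0.12 (4 under library totals). No tested marker was at 0 in all 6 libraries. Leaving out single libraries moved the counts of called basophil, neutrophil, eosinophil, erythroid, progenitor, mast cell, monocyte and T and B cell markers by 1.

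The response was then set beside that of WT cells. Of the genes called in libraries labelled TTP-KO, 97.5% had the same sign in WT, where 4944 genes were called. Both genotypes called 3748 genes, 3745 of them in the same direction. Over the 14076 genes the log2 fold changes of the 2 genotypes had a Pearson correlation of 0.56 and a Spearman correlation of 0.68, a description across genes, which are not independent replicates and share their libraries. A difference of responses, TTP-KO minus WT, was called for 5 genes as higher (0.0355% of those tested) and 2 as lower (0.0142%). Without adjustment, 930 genes had a p under 0.05, where 704 of 14076 would if none differed. Just past the threshold, and not called, were Blcap and Lasp1, with a response in TTP-KO minus that in WT of -0.52 and -0.28 on the log2 scale (edgeR adjusted p = 0.05004 each). Blcap gained the call in 6 of 17 other settings and Lasp1 in 7 of 18. The count of 7 was 22 with DESeq2 and 55 with no filter, and 4 without OVA replicate 2, TNP-OVA replicate 1 or TNP-OVA replicate 3 of the libraries labelled TTP-KO. The median standard error of this difference was 0.216 on the log2 scale, so that small differences were not detectable with 3 libraries in each group. Calls in 1 genotype alone, 1104 in TTP-KO and 1196 in WT, are not differences between them, and only Tufm of the 1104 had a called difference.

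The cytokine and chemokine genes Il13 and Ccl3 rose further in libraries labelled TTP-KO than in WT. Il13 in WT stood at 786, 854 and 834 CPM with TNP-OVA and 94.7, 104 and 92.1 CPM with OVA, all WT antigen values being below the TTP-KO ones given above while the control values overlapped. The log2 difference of responses was 0.58 ± 0.08 (edgeR adjusted p = 6.80e-04). Ccl3 in WT stood at 18330, 18670 and 18190 CPM with TNP-OVA and 2148, 2193 and 2295 CPM with OVA, with a difference of 0.55 ± 0.07 (edgeR adjusted p = 0.00139). Ccl4, beside it in abundance, gave 0.09 (edgeR adjusted p = 0.829), Il6 gave 0.38 (edgeR adjusted p = 0.248) and Il4 gave 0.02 (edgeR adjusted p = 0.991). Rgs1, a brake on G protein-coupled receptors, stood in libraries labelled TTP-KO at 600.5, 581 and 552 CPM with TNP-OVA, against 182, 178 and 178 CPM with OVA. Rgs1 in WT stood at 529, 548 and 542 CPM with TNP-OVA and 219, 237 and 222 CPM with OVA, lower with antigen and higher in control, and the difference of responses was 0.43 ± 0.06 (edgeR adjusted p = 8.04e-04).

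Nr4a3 rose less in libraries labelled TTP-KO. In WT it stood at 553, 609 and 604 CPM with TNP-OVA and 40.5, 42.7 and 42.7 CPM with OVA, with all WT antigen values above the TTP-KO ones, and the difference of responses was -0.56 ± 0.08 (edgeR adjusted p = 8.04e-04). Zfp36 stood in WT at 446, 459.9 and 439 CPM with TNP-OVA and 224, 239 and 247 CPM with OVA, with a difference of 0.41 ± 0.08 (edgeR adjusted p = 0.0249). Phf20l1, a reader of methylated proteins, fell in both genotypes, to 194, 189 and 184 CPM with TNP-OVA, against 249.7, 251 and 266 CPM with OVA in libraries labelled TTP-KO. The difference of 0.34 ± 0.07 (edgeR adjusted p = 0.0327) was a smaller fall there than in WT, where it stood at 168, 177 and 184 CPM with TNP-OVA and 309, 294 and 305 CPM with OVA. Tufm, a mitochondrial translation elongation factor, stood in libraries labelled TTP-KO at 9.55, 9.5 and 7.93 CPM with TNP-OVA, against 18.8, 17.9 and 19.7 CPM with OVA. In WT it stood at 18.8, 13 and 21 CPM with TNP-OVA and 16.6, 17.3 and 15.9 CPM with OVA, where the groups overlapped, and the difference was -1.15 ± 0.22 (edgeR adjusted p = 0.0327). Il13, Ccl3, Rgs1 and Nr4a3 passed the threshold under all 18 alternatives tried for them, whereas leaving out 1 of the 12 libraries ended the call in 10 of 12 cases for Zfp36, 9 of 12 for Phf20l1 and 11 of 12 for Tufm.

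**Figure D5:**
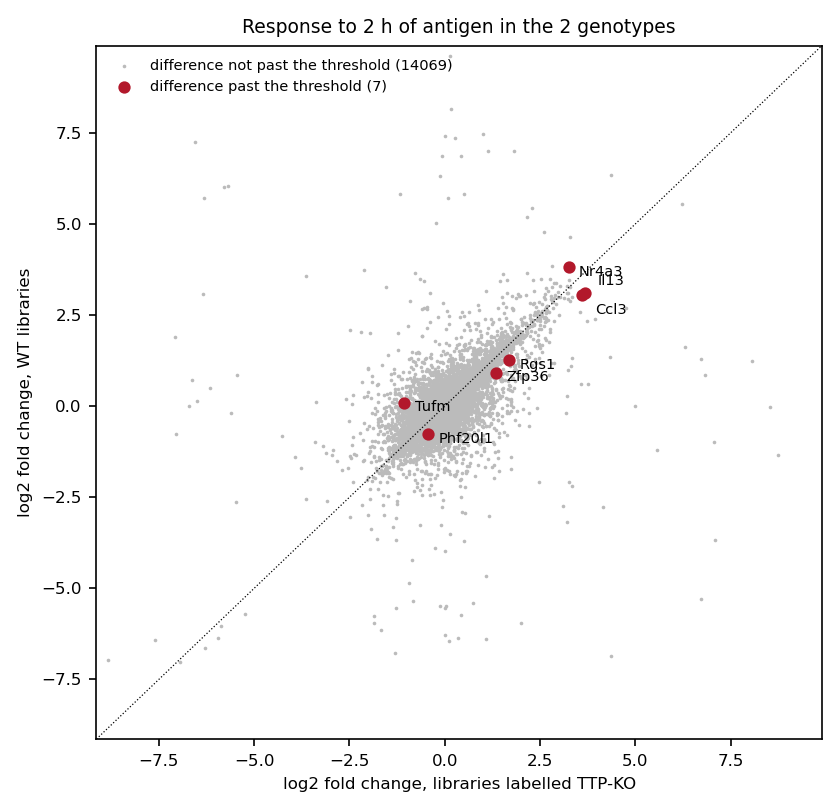
Each dot is a tested gene, with its log2 fold change, TNP-OVA 2 h over OVA 2 h, in libraries labelled TTP-KO across and in WT upward, and the dotted line marks equal values. Red dots are the 7 genes whose difference of responses was called, and Tufm, at a difference of -1.15, lies furthest of these from the line.

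After 4 h of TNP-OVA, the mean levels of all 12 largest increases lay between the control and 2 h means in libraries labelled TTP-KO, at 11.6% to 51.0% of the 2 h level. Il13 averaged 139.8 ± 6.44 CPM at 4 h (SD, n = 3). Of the 12 largest decreases, 10 also lay between at 4 h. Over all 12 decreases, the 4 h level was 60.5% to 548% of the 2 h level. Both sets were chosen for their extreme 2 h values, which by itself favours a 4 h mean nearer the control. No group was given OVA for 4 h, so the control here is OVA for 2 h.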

How the data were processed

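Polyadenylated RNA was sequenced in 18 libraries. The authors deposited estimated counts per gene without normalization, per the file header and the values, and the tools listed in the submitters' processing notes, without roles, are RSEM 1.3.1, STAR 2.7.10a, cutadapt 3.5, R 4.4.0 and R 4.4.1, with build GRCm39. The annotation and strand setting are not given in the sources used here. Control columns named as unstimulated were matched to the OVA samples.

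Estimated counts were rounded to whole numbers for edgeR 4.0.16 (R 4.3.3, limma 3.58.1). After filterByExpr over the 6 groups, libraries were scaled by TMM and fitted over all 18 libraries with a robust quasi-likelihood model (12 residual degrees of freedom), with Benjamini-Hochberg adjustment over 14076 genes. Each standard error is the absolute log2 fold change over the root of its F statistic. The code was tested on simulated data. An exact permutation test of 3 against 3 libraries cannot go below 0.1, so tests rest on the model. CPM values are TMM-scaled.

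Genes and the 32 lists were chosen with earlier results of these data known. Named were the 12 largest increases and decreases (mean log2 CPM of at least 2, no overlap), the 6 largest gains and losses in CPM, the 6 smallest p in each direction of the genotype difference and up to 4 called members per list, or 2 where none was called. Genes known only by an identifier or clone name were counted but not named. Other members given by value were chosen after their values were seen. H2, Ear, tryptase (Tpsab1, Tpsb2), Hba and Bcl2a1 genes have near-identical copies, so their counts are uncertain. Alternatives were DESeq2 1.42.0, RLE scaling (relative log expression), omission of the filter, only the libraries compared, a replicate block and leaving out each library. Scaling by library totals was added after the data were seen. Some named genes are not reported here.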

Additional observations from a re-analysis of the deposited data

Results flagged for a closer look

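The difference of responses between genotypes, TTP-KO minus WT on the log2 scale, passed its edgeR interaction test for 7 genes, which are set out here for that reason. It was 0.58 for Il13 (edgeR adjusted p = 6.80e-04), 0.43 for Rgs1 (edgeR adjusted p = 8.04e-04), 0.55 for Ccl3 (edgeR adjusted p = 0.00139), 0.41 for Zfp36 (edgeR adjusted p = 0.0249) and 0.34 for Phf20l1 (edgeR adjusted p = 0.0327). It was -0.56 for Nr4a3 (edgeR adjusted p = 8.04e-04) and -1.15 for Tufm (edgeR adjusted p = 0.0327). Over the alternatives the adjusted p of the difference ran up to 0.00565 for Il13, 0.00993 for Rgs1, 0.0167 for Ccl3 and 0.00609 for Nr4a3, and up to 0.117 for Zfp36, 0.186 for Phf20l1 and 0.141 for Tufm.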

How the results depend on the processing

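The 4852 calls of the TTP-KO response (2510 higher, 2342 lower) were 7676 (1218 and 6458) under library totals. Leaving out 1 library gave 4288 to 4489 calls (2218 to 2329 higher, 2027 to 2172 lower). DESeq2 gave 4345, 2451 higher and 1894 lower. The 7 called differences between genotypes were 55 with no filter, 22 with DESeq2, 11 with only the 12 libraries compared and 4 to 8 without 1 library, 4 without OVA replicate 2, TNP-OVA replicate 1 or TNP-OVA replicate 3 of the libraries labelled TTP-KO. The cause was not tested. Same-numbered libraries did not deviate together (correlations of -0.0224, 0.0534 and -0.0743), so the numbers are not taken as pairs. With a replicate block, 4825 genes were called (2494 higher, 2331 lower), and 8 differences between genotypes. Under library totals 6 log2 fold changes reversed, Blcap to -0.20, Gata1 to -0.043, H2-Aa to -0.22, H2-Ab1 to -0.22, H2-Eb1 to -0.17 and Tpsb2 to -0.078. Of the other values of named genes for the TTP-KO response, 1532 kept direction and side of the threshold, 31 lost the call and 2 gained it. For the difference between genotypes, 165 kept both, 32 lost the call and 16 gained it. Estimated counts of 6051772 to 8935769 per library and 3 libraries a group limit the precision of low transcripts.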
